A study of Zea mays with 12 samples.

Results

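The genes described here are the sucrose exporters SWEET13a (GRMZM2G173669), SWEET13b (GRMZM2G021706) and SWEET13c (GRMZM2G179349) and the sucrose/proton symporter SUT1 (GRMZM2G034302) of maize. They were chosen by gene identifier, with earlier results of these data known, and make up 4 of the 110005 gene models in the deposited table. RNA-seq libraries were made from cells of the bundle sheath (BS) and of the mesophyll (M) that had been cut by laser microdissection (LM) from acetone-fixed, paraffin-embedded pieces of the third leaf of 9-day-old plants of the inbred Mo17. The 3 stages of the leaf that were sampled were named sink-source transition (SST), maturing and mature by the study, which places them at -1, 4 and 9 cm from the site where the transition is complete. The labels number the leaf sections 4, 9 and 14, and these numbers were matched to the stages in the same order. Each of the 6 groups (BS and M of SST, of maturing and of mature sections) holds 2 libraries, 12 in all, and no group carries a mutation or a treatment. The captured RNA had been amplified by 1 round, and nothing in the labels says that replicate libraries came from separate plants, so the p-values below measure the spread between these libraries. The study set BS against M to follow how the cell types of the C4 leaf diverge along the leaf, and these 4 genes bear on where the sucrose made in the leaf leaves the cells.

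In a source leaf, sucrose has to pass from the cells that make it into the phloem. SWEET proteins are membrane channels that let sugars pass down their concentration gradient, and the SWEET13 genes belong to the group of the family known for sucrose export. SUT1 moves sucrose together with protons into a cell against its gradient, a step known to load the phloem in maize, and plasma membrane H+-ATPases supply the proton gradient. A leaf that is still a sink takes sucrose in from older leaves, and it exports sucrose after the sink-source transition.

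SWEET13a and SWEET13b lie on the same chromosome in the RefSeq annotation of a later maize assembly, with 1 annotated gene, a pseudogene, between them, and SWEET13c lies on another chromosome. The SWEET13 genes are paralogs, and how reads that match more than 1 of them were assigned is not given in the sources used here. The value of each single SWEET13 gene is therefore uncertain to that extent, and their summed level is given as well. Levels are given in FPKM (fragments mapped to a gene, relative to its length and to the depth of the library), after each library had been brought to the same upper quartile, 2.56 FPKM. The study states that the amplification shifts reads toward the 3′ ends of transcripts, so that division by length can distort a comparison between genes. Orders, sums, shares and ratios across genes carry that limit, which was not tested, while BS and M are compared within a gene.

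As a check of the cell labels, the BS markers NADP-ME, PEPCK, ssu1 and Rubisco activase were all higher in BS at each stage, and the M markers PepC, PPDK, MDH and carbonic anhydrase were called higher in M in 4, 4 and 3 of 4 cases at SST, maturing and mature. The separation was not complete. The summed BS markers in M amounted to 14.0%, 3.81% and 8.22% of their level in BS at SST, maturing and mature. The M markers in BS ranged from 16.7% of their level in M, for PepC at maturing, to 44.3%, for PPDK at mature, and PPDK had the highest such percentage at each stage. The 4 PP2 family genes, the only phloem list used, summed to between 33.4 and 37.4 FPKM in maturing BS and between 33.3 and 36.6 FPKM in maturing M, and to between 62.5 and 82.4 FPKM in mature BS and between 51.6 and 62.4 FPKM in mature M. None of them was called between BS and M at any stage. The fitted log2 BS/M of GRMZM2G081032 and GRMZM2G051541 was above 0 at each stage (at least 0.52 and 1.31), and GRMZM5G862817 had the higher mean in BS. GRMZM2G060257 went the other way at SST, with means of 9.82 FPKM in BS and 20.6 FPKM in M. It did so at maturing as well, with 6.05 FPKM in BS and 11.9 FPKM in M. At SST the summed PP2 genes were between 31.2 and 32.7 FPKM in BS and between 26.8 and 36.2 FPKM in M. The summed epidermal OCL genes were between 0.672 and 1.18 FPKM in maturing BS and between 7.68 and 8.31 FPKM in maturing M. The depth, read from the steps that single reads leave in low values, was 2.31 to 2.36 times that of the first SST BS library in the 4 maturing libraries, against 0.645 to 1.00 times in the SST libraries and 0.874 to 1.22 times in the mature ones. Levels near 0 are thus better resolved at the maturing stage, and in such captured tissue fewer cells of a type and less RNA per cell cannot be told apart.

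All 4 genes had more transcript in BS than in M at every stage. Both BS libraries were above both M libraries in each of the 12 combinations of gene and stage, and 11 of these 12 differences passed the test. The mean of BS was between 25.0 and 76.4 times that of M at maturing and between 3.27 and 9.70 times in the mature section. The ratio was highest for SUT1 at maturing and for SWEET13c in the mature section, and lowest for SWEET13c at maturing and for SWEET13a in the mature section.

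**Figure D1:**
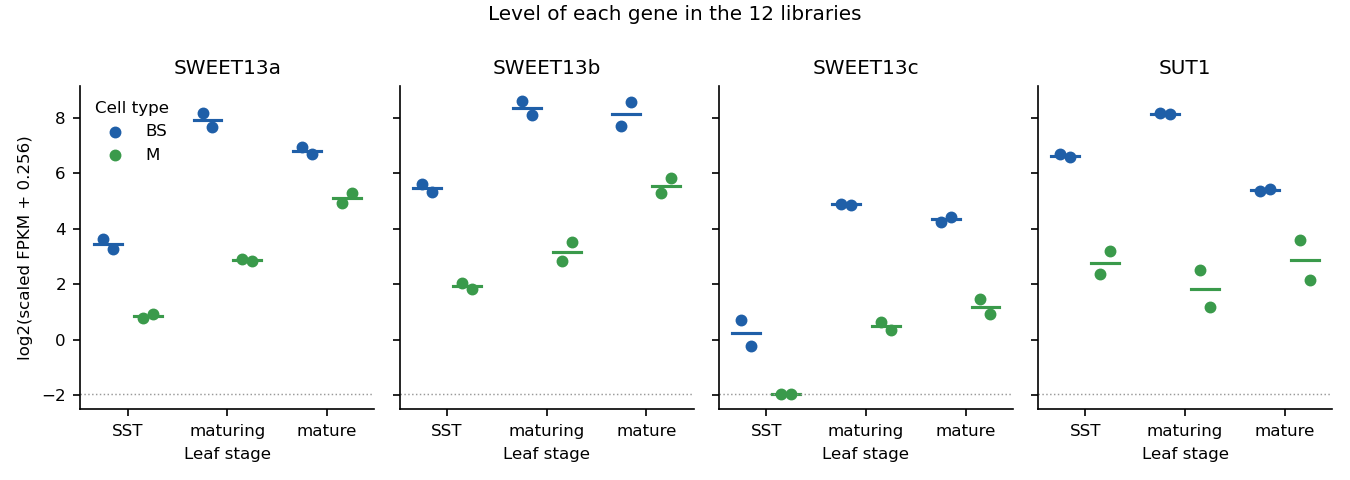
Level of SWEET13a, SWEET13b, SWEET13c and SUT1 in the 12 libraries, as log2(scaled FPKM + 0.256) on the vertical axis, by leaf stage. Each point is 1 library, the short bars are the means of 2 libraries, BS stands left of M, and the dotted line is the value of a gene listed at 0. In each panel and stage both BS points lie above both M points, and in mature BS the points of SWEET13a and SWEET13b lie above those of SUT1 and the points of SWEET13c below them.

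SWEET13a was measured at 12.1 and 9.39 FPKM in SST BS, against 1.45 and 1.64 FPKM in SST M. In the maturing section it reached 289.6 and 202 FPKM in BS, against 7.24 and 6.85 FPKM in M. In the mature section it was at 123 and 103 FPKM in BS, against 30.5 and 38.9 FPKM in M. The 6 groups followed the order maturing BS, mature BS, mature M, SST BS, maturing M and SST M from high to low, and no neighbours in this order overlapped. Mature M therefore held more SWEET13a transcript than SST BS did. The fitted log2 BS/M of SWEET13a for SST, maturing and mature was 2.60, 5.05 and 1.71, each ± 0.22 (SE), with limma adjusted p of 0.000789, 1.2e-05 and 0.00252.

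SWEET13b, the most abundant of the SWEET13 genes in 11 of 12 libraries, stood at 49.1 and 40.3 FPKM in SST BS, against 3.86 and 3.31 FPKM in SST M. The maturing section gave 394 and 275 FPKM in BS, against 6.90 and 11.2 FPKM in M. The mature section gave 211 and 385 FPKM in BS, against 38.7 and 56.4 FPKM in M. The replicates of mature BS were far apart, and maturing BS and mature BS overlapped, as did mature M and SST BS. No other neighbours in the order of the groups did. Its fitted log2 BS/M for SST, maturing and mature was 3.55, 5.19 and 2.60, each ± 0.36 (SE), with limma adjusted p of 0.0015, 7.8e-05 and 0.00305.

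SWEET13c was the least abundant of the 3 paralogs in all 12 libraries. It was at 1.38 and 0.606 FPKM in SST BS and listed at 0 in both SST M libraries, which were also the shallowest of the series. It was at 29.8 and 28.9 FPKM in maturing BS, against 1.32 and 1.03 FPKM in maturing M, and at 19.0 and 21.3 FPKM in mature BS, against 2.49 and 1.66 FPKM in mature M. SST BS and maturing M overlapped, and the other neighbours in the order of the groups did not. The difference at SST passed the test (limma adjusted p = 0.00635), but with M at 0 a ratio has no meaning. The fitted log2 BS/M was 4.38 ± 0.33 at maturing and 3.15 ± 0.33 at mature (SE), with limma adjusted p of 0.000121 and 0.000943.

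SUT1 had a different course. It was at 103 and 95.8 FPKM in SST BS, against 4.93 and 8.86 FPKM in SST M, and so was above each SWEET13 gene in all 4 SST libraries. It was at 288 and 282 FPKM in maturing BS, against 5.45 and 2.01 FPKM in maturing M. It was at 41.5 and 43.6 FPKM in mature BS, against 11.9 and 4.20 FPKM in mature M. The BS groups followed the order maturing, SST and mature with no overlap, while the 3 M groups overlapped, each with at least 1 other. The BS replicates were close, but the M replicates were not, with an SD of 40.3%, 65.1% and 67.5% of the mean at SST, maturing and mature. The fitted log2 BS/M was 3.85 ± 0.54 at SST and 6.31 ± 0.54 at maturing (SE), with limma adjusted p of 0.00487 and 0.000225. Without the first maturing M library the value at maturing was 6.97 and without the second 5.64, called in both cases. In the mature section it was 2.54 ± 0.54 and did not pass the threshold of 0.01 (limma adjusted p = 0.0176).

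Set against all genes tested, 4 of 4 genes were called higher in BS at SST, where 1.64% of the 32548 genes tested were called in that direction, 4 of 4 at maturing, where 4.82% were, and 3 of 4 at mature, where 3.66% were. The 4 genes were chosen with earlier results of these data known, so setting them beside these shares is not a test of the set. Their median log2 BS/M was 5.12 at maturing and 2.57 at mature. Over all genes tested the median was 0 at both stages. With a separate fit for each stage, the calls of SWEET13a, SWEET13b and SWEET13c at maturing held, and the others were lost, with adjusted p between 0.0112 for SUT1 at maturing and 0.108 for SWEET13c at SST. Leaving out 1 library at a time ended 4 of the 11 calls: SWEET13c at SST when any single library but the second SST BS one was left out (adjusted p up to 0.0253), SUT1 at SST when any single SST or BS library was left out (up to 0.0326), SWEET13b at mature without either SST BS library, the second maturing BS library, the second mature BS library or either mature M library (up to 0.0204), and SWEET13a at mature without the first mature BS library (0.0112) or the first mature M library (0.0132).

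**Figure D2:**
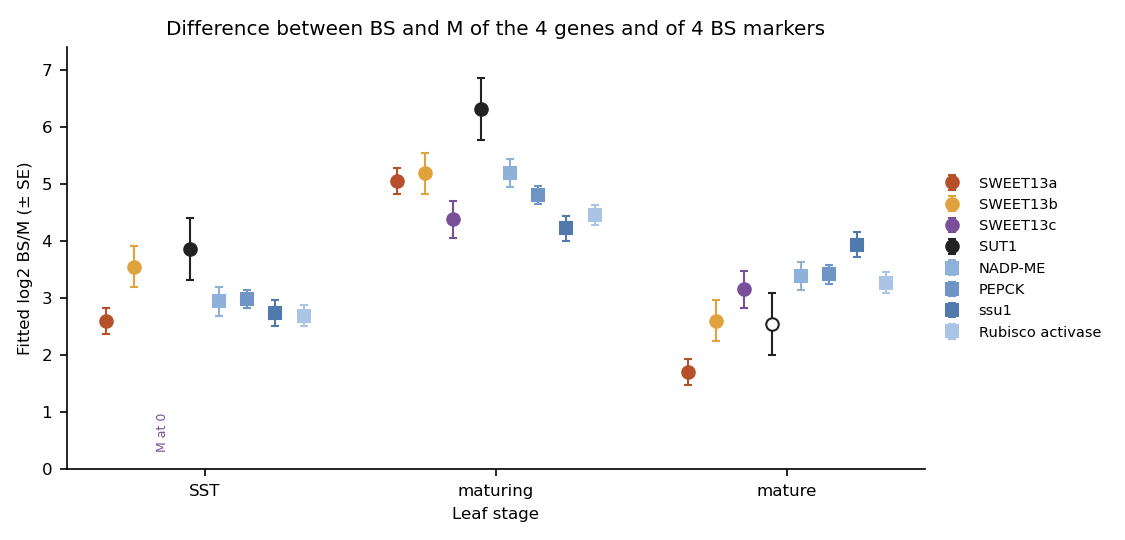
Fitted log2 BS/M with its SE (vertical axis) at the 3 stages for the 4 genes (circles) and for 4 BS markers (squares), filled where the limma adjusted p was below 0.01. SUT1 at maturing is the highest point at 6.31, and SWEET13a at mature is the lowest at 1.71. At mature the points of all 4 genes lie below those of the 4 BS markers. SWEET13c at SST has no point because both M libraries are listed at 0.

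The level in M can be read beside that of the BS markers. At SST the mean of M was 14.4% of that of BS for SWEET13a, 8.01% for SWEET13b and 6.95% for SUT1, where the 4 BS markers were at 12.6% to 15.4%. At maturing it was 2.86% for SWEET13a, 2.70% for SWEET13b, 4.01% for SWEET13c and 1.31% for SUT1, where the markers were at 2.74% to 5.38%. No member was above the highest of the 4 markers at these stages. In the mature section it was 30.6% for SWEET13a, 16.0% for SWEET13b, 10.3% for SWEET13c and 18.9% for SUT1, where the markers were at 6.34% to 10.3%. SWEET13a, SWEET13b and SUT1 thus stood above all 4 markers there and SWEET13c was level with the highest of them, although for SUT1 this rests on a mean of 11.9 and 4.20 FPKM in M, of which the second is 9.89% of the mean of BS. The part of BS material in the M values was not tested.

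Between stages, the calls within BS in the fit of all 6 groups were not the same for the SWEET13 genes and for SUT1. The difference between these genes was not tested. From SST to the maturing section all 3 SWEET13 genes rose in BS, SWEET13a and SWEET13c most. In the following step SWEET13a and SUT1 fell in BS, and SWEET13b and SWEET13c did not pass the test. As a result SWEET13 transcripts in mature BS were well above their SST level, while SUT1 in mature BS was at 41.5 and 43.6 FPKM, against 103 and 95.8 FPKM in SST BS, without passing the test.

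In BS of the maturing section against BS of SST, the fitted log2 difference was 4.47 ± 0.22 for SWEET13a, 2.88 ± 0.36 for SWEET13b and 4.64 ± 0.33 for SWEET13c (SE), with limma adjusted p of 2.1e-05, 0.000957 and 8.2e-05. For SUT1 it was 1.52 ± 0.54 and did not pass (limma adjusted p = 0.086), although both maturing libraries were above both SST ones. The SE of a gene is pooled over all 6 groups, and for SUT1 it includes the wide spread of the M replicates. Fitted on the BS libraries of these stages alone, its SE was 0.10 and the difference was called (limma adjusted p = 0.0061). In the fit of all 6 groups 3 of 4 genes were called higher, where 6.1% of all genes tested were. In BS of the mature section against BS of maturing, SUT1 fell by 2.74 ± 0.54 and SWEET13a fell by 1.10 ± 0.22 on the log2 scale (limma adjusted p = 0.00727 and 0.0084), 2 of 4 genes where 6.57% of all genes were called lower. The difference was -0.21 ± 0.36 for SWEET13b (limma adjusted p = 0.766) and -0.54 ± 0.33 for SWEET13c (limma adjusted p = 0.285). Between mature and SST BS, the log2 difference was 3.37 for SWEET13a, 2.67 for SWEET13b and 4.10 for SWEET13c, all called, where 12.1% of all genes were called higher, and -1.22 for SUT1 (limma adjusted p = 0.126). The 2 falls between maturing and mature were near the threshold, and with a separate fit for each comparison that of SWEET13a (adjusted p = 0.0608) and the difference of SWEET13b between mature and SST (0.0142) were not called. The call of SWEET13a was lost when any single library except the second maturing BS one was left out (adjusted p up to 0.0499), and that of SUT1 when any single SST or BS library was (up to 0.0518). The rise of SWEET13b was lost without the second SST BS library (0.0127) or the first maturing BS library (0.0121), and its call between mature and SST without the second SST BS library (0.0107).

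In M all 3 SWEET13 genes were called higher in mature than in SST sections, and no stage difference was called for SUT1. SWEET13a in M was called higher in maturing than in SST sections, by 2.02 ± 0.22 on the log2 scale (limma adjusted p = 0.000913), and again higher in mature than in maturing sections, by 2.25 ± 0.22 (limma adjusted p = 0.000261). SWEET13b in M differed by 1.24 ± 0.36 between maturing and SST, which did not pass (limma adjusted p = 0.0465), and was called higher in mature than in maturing M, by 2.37 ± 0.36 (limma adjusted p = 0.00197). SWEET13c in M was called higher in maturing than in SST sections, where it was listed at 0 (limma adjusted p = 0.002), and the difference between mature and maturing M was 0.69 ± 0.33 (limma adjusted p = 0.179). SUT1 in M differed by -0.93, 1.03 and 0.10 between maturing and SST, mature and maturing, and mature and SST, with limma adjusted p of 0.295, 0.214 and 1. Thus 2 of 4 genes were called higher in M in each of the successive steps, where 4.48% of all genes were in the first and 7.31% in the second, and 3 of 4 between mature and SST, where 10.5% were. The summed BS markers in M lay between 1185 and 1203 FPKM at SST, 762 and 825 FPKM at maturing and 1953 and 2397 FPKM at mature. BS marker signal in M was thus lower at maturing than at SST and higher at mature than at maturing. Its part in the SWEET13 values was not tested. With a separate fit for each comparison the calls in M were lost for SWEET13a in both successive steps (adjusted p = 0.0195 and 0.0113), for SWEET13b between mature and maturing (0.0269) and for SWEET13c between maturing and SST (0.0309) and between mature and SST (0.0169). The call of SWEET13c between maturing and SST M was lost when any single M library of these stages was left out (adjusted p up to 0.0176). That of SWEET13b between mature and maturing M was lost without the first maturing M library (0.0216) or the second mature M library (0.0197).

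**Figure D3:**
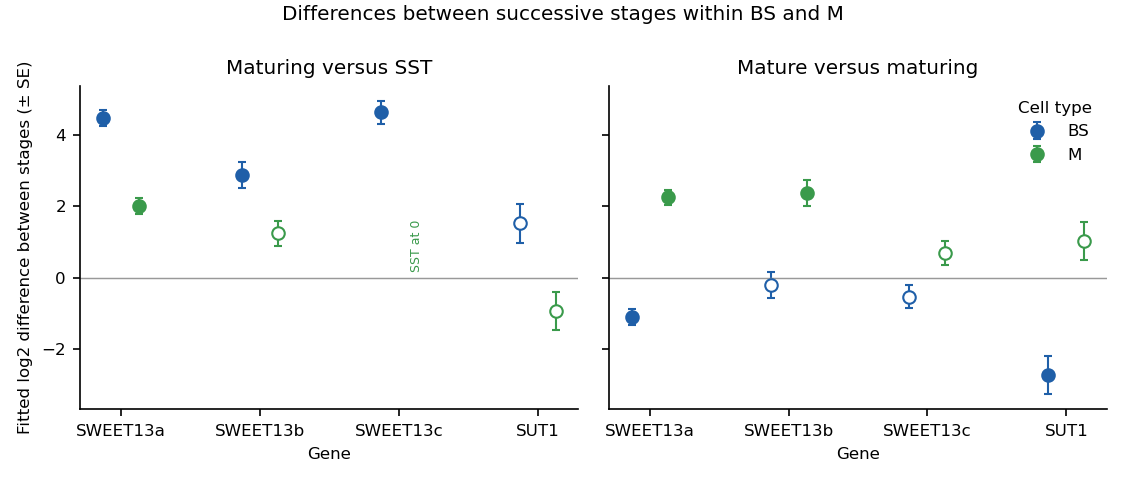
Fitted log2 difference between successive stages with its SE (vertical axis) for each gene, in BS (left point of each pair) and M (right point), filled where the limma adjusted p was below 0.01. In the step between SST and maturing the BS points of the SWEET13 genes lie between 2.88 and 4.64, and in the step between maturing and mature the BS points lie below 0 and the M points above it. The M point of SWEET13c between SST and maturing is left out because SST M is listed at 0.

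The test of whether the BS/M difference itself changed was passed by 1 gene in 1 step. The log2 BS/M of SWEET13a was lower in the mature than in the maturing section, by -3.35 ± 0.32 (SE, limma adjusted p = 0.00185), 1 of 4 genes where 0.578% of all genes tested were called lower. In the same step the change was -3.77 ± 0.76 for SUT1 and -2.58 ± 0.50 for SWEET13b, with limma adjusted p of 0.0361 and 0.0315, and -1.23 ± 0.47 for SWEET13c, with 0.201. The estimate of SUT1 was larger than that of SWEET13a and its error was larger as well. Between SST and maturing the change was 2.45 ± 0.32 for SWEET13a, 1.64 ± 0.50 for SWEET13b and 2.45 ± 0.76 for SUT1, with limma adjusted p of 0.012, 0.157 and 0.161, and for SWEET13c it was not called either (0.0627). No member was therefore called in this step, where 0.307% of all genes were called in either direction. The change of SWEET13a in this step was close to the threshold and passed it without the first SST BS library (adjusted p = 0.00815) or the second maturing BS library (0.00195), and that of SWEET13c without the first SST BS library (0.00923).

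The summed level of the 3 SWEET13 genes, which depends less on how reads were split between paralogs, was 56.5 ± 8.65 FPKM in SST BS and 5.13 ± 0.25 FPKM in SST M (SD, n = 2 each here and below). It was 610.0 ± 147 FPKM in maturing BS and 17.3 ± 2.56 FPKM in maturing M, and 431 ± 110.0 FPKM in mature BS and 84.3 ± 17.8 FPKM in mature M. The sum was thus higher in BS at each stage, by 3.45, 5.13 and 2.35 on the log2 scale at SST, maturing and mature. An exact two-sided permutation test of the cell labels within stages gave p = 0.00926, the smallest that its 216 arrangements allow. After adjustment over the 3 quantities tested in this way it was 0.0278. Both BS libraries were above both M libraries for each gene and stage, which fixes this p, so the test adds nothing to that order.

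The make-up of the sum was described by stage, and no test was run on it between stages. SWEET13b made up 78.5% and 80.1% of it in SST BS, 55.3% and 54.4% in maturing BS and 59.7% and 75.5% in mature BS. The SWEET13b level was 4.06 and 4.29 times that of SWEET13a in SST BS, 1.36 and 1.36 times in maturing BS and 1.71 and 3.73 times in mature BS. The SST and maturing BS libraries did not overlap in this ratio, while the mature ones lay between them and apart from each other. In M the share of SWEET13b was 72.6% and 66.8% at SST, 44.7% and 58.7% at maturing and 54.0% and 58.2% at mature. The share was on average 8.09 percentage points higher in BS than in M over the stages, with p = 0.0463 in the exact permutation test and 0.0694 after adjustment, so the difference did not pass. SWEET13c made up 8.54% of the sum at most, in the first maturing M library.

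The ratio of SUT1 to the SWEET13 sum was lower at each later stage in the means of both cell types. SUT1 was at 1.64 and 1.90 times the SWEET13 sum in SST BS, at 0.404 and 0.557 times in maturing BS and at 0.117 and 0.0856 times in mature BS. These BS libraries did not overlap between stages. In M the ratio was 0.928 and 1.79 at SST, 0.352 and 0.106 at maturing and 0.166 and 0.0434 at mature, with an overlap of maturing and mature. SUT1 was above the SWEET13 sum in 3 of 12 libraries, all of SST. No test was run on this ratio between stages. Between BS and M its log2 value differed by 0.66 on average (exact permutation p = 0.176, also after adjustment), within the spread of the M libraries.

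**Figure D4:**
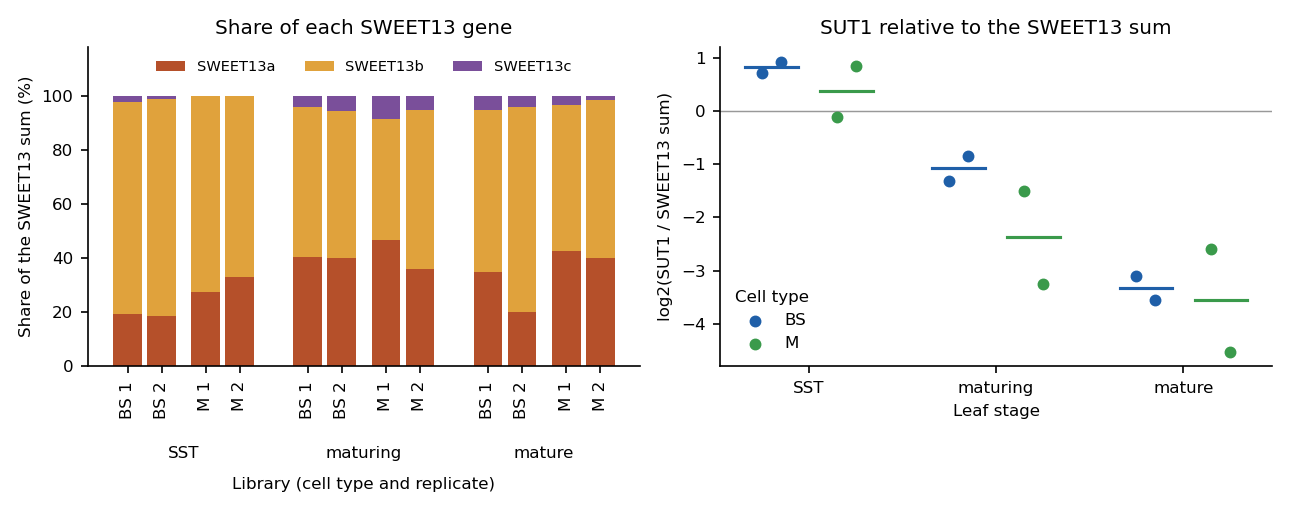
Left, share of SWEET13a, SWEET13b and SWEET13c in their summed FPKM (vertical axis, %) in each of the 12 libraries, BS left of M within each stage. Right, log2 ratio of SUT1 to the SWEET13 sum in the same libraries, points for libraries and bars for means of 2. SWEET13b has the largest share in all libraries but the first maturing M one, where SWEET13a has 46.8%, and the ratio is above 0 in 3 SST libraries and below it in all others.

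Over the 12 libraries the log2 levels of the SWEET13 genes ran closely together, with Pearson's r of 0.96 between SWEET13a and SWEET13b, 0.971 between SWEET13a and SWEET13c and 0.934 between SWEET13b and SWEET13c. The r of SUT1 was 0.654 with SWEET13a, 0.745 with SWEET13b and 0.648 with SWEET13c. The libraries fall into 6 groups, and these values describe mostly the differences between BS and M and between stages. How reads were split between the SWEET13 paralogs can also enter the r among them, and its part was not tested.

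The named genes with the pattern most like each member were found by the same measure among 13605 genes with a mean of at least 2.56 FPKM, of which 1188 have a name in the reference table. For SWEET13a these were bss1, AUX18, cts1, RADIALIS and Tie-dyed2 (r of 0.966 to 0.951). For SWEET13b the catalase gene cat1 had the highest r of all genes, named or not, at 0.99, followed by GRMZM2G165998, ATPUP3, the glycolate oxidase gene go1 and ss1 (0.972 to 0.962). GRMZM2G165998 matches 2 genes of the reference table, of which 1 is listed as Hsf01. The study gives this gene as a homologue of Arabidopsis acireductone dioxygenase genes. SWEET13c shared RADIALIS, bss1 and Tie-dyed2 with SWEET13a, at 0.969, 0.969 and 0.968, beside arf1 and MYBR87. Tie-dyed2, a gene known in maize for a mutant that fails to export carbohydrate from patches of the leaf, was at 5.88, 17.7 and 19.3 FPKM in SST, maturing and mature BS and at 3.78, 6.02 and 7.60 FPKM in SST, maturing and mature M (means of 2). The named genes most like SUT1 were others: uck1, the enolase gene eno2, the annexin gene Ann5, the thioredoxin gene trxh1 and pDCT2, a plastid dicarboxylate transporter gene (0.98 to 0.943). Among all genes ranked, the first named gene stood at rank 14 for SWEET13a and for SWEET13c and at rank 4 for SUT1. Genes without a name stood before it. Ann5 averaged 12.8, 99.4 and 17.9 FPKM in SST, maturing and mature BS and 0.553, 0.503 and 2.22 FPKM in SST, maturing and mature M, with a peak in maturing BS as for SUT1.

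The rest of the sucrose route was read from lists of other transporters, proton pumps and enzymes. The other sucrose transporter genes named in the reference, sut2 and sut4, were low. sut2 lay between 0.643 and 2.22 FPKM and sut4 between 0.101 and 1.02 FPKM over the 12 libraries, and none of their 22 tests between cell types or stages was called. Over the same comparisons 0.307% to 22% of all genes tested were called in either direction, so the lack of calls says little. SUT1 was above sut2 and sut4 in each library.

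The plasma membrane H+-ATPase genes mha2 and pma1 were called higher in BS at maturing and mature. These were 2 of 3 tested genes of that list, where 4.82% and 3.66% of all genes tested were called higher. At SST 0 of the 3 were called, where 1.64% of all genes tested were called higher in BS. There mha2 averaged 41.8 FPKM in BS and 12.7 FPKM in M, and pma1 52.7 FPKM in BS and 32.2 FPKM in M. mha2 was at 88.6 and 47.4 FPKM in maturing BS, against 4.45 and 3.39 FPKM in maturing M, and at 75.6 and 115 FPKM in mature BS, against 19.2 and 14.8 FPKM in mature M. pma1 was at 69.3 and 57.0 FPKM in maturing BS, against 8.56 and 9.54 FPKM in maturing M, and at 326 and 578 FPKM in mature BS, against 52.6 and 48.9 FPKM in mature M. pma1 rose in BS by 2.78 ± 0.25 (SE) on the log2 scale between maturing and mature (limma adjusted p = 0.000149), the step in which SUT1 fell. The third tested gene, mha4, reached 0.493 FPKM at most, and mha1 was listed at 0 in all 12 libraries.

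Of the 4 other genes that the study's annotation puts in the MtN3 family, to which SWEET genes belong, none was above 1.66 FPKM in a mature library. The study listed these genes for a difference between BS and M in these libraries, so their calls are not independent evidence. GRMZM2G153358 was at 20.0 and 11.8 FPKM in SST BS, against 3.57 and 3.69 FPKM in SST M, at 517 and 447 FPKM in maturing BS, against 15.1 and 13.0 FPKM in maturing M, and at 0.420 and 0.123 FPKM in mature BS, against 0.876 and 0.778 FPKM in mature M. At maturing it was thus above each SWEET13 gene in BS, and in mature BS it was far below SWEET13a and SWEET13b. GRMZM2G000812 was highest in SST, at 96.2 and 86.8 FPKM in BS, against 24.8 and 32.3 FPKM in M, and GRMZM2G039365 was highest in SST as well, at 114 and 111 FPKM in BS, against 204 and 222 FPKM in M. GRMZM2G324903 lay between 0.597 and 7.52 FPKM.

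**Figure D5:**
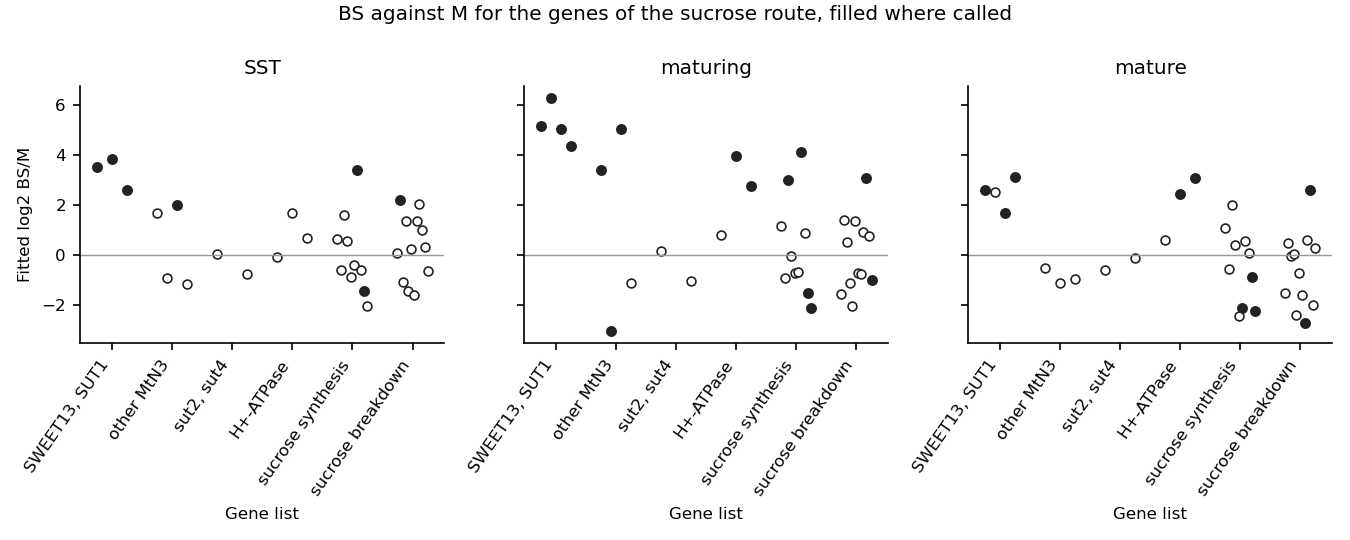
Fitted log2 BS/M (vertical axis) at SST, maturing and mature for the 4 genes and for the lists of other MtN3 family genes, sut2 and sut4, H+-ATPases, sucrose synthesis and sucrose breakdown. Each point is a gene, filled where the limma adjusted p was below 0.01, and genes with a group listed at 0 are left out. The SWEET13 and SUT1 points lie between 4.38 and 6.31 at maturing, and the points of sucrose synthesis and breakdown fall on both sides of 0.

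The sucrose synthesis list holds 6 sucrose phosphate synthase (SPS), 2 sucrose phosphatase (SPP) and 2 fructose bisphosphatase (FBPase) genes, and it was divided between the cell types. At SST, maturing and mature, 1, 2 and 0 of its 10 genes were called higher in BS and 1, 2 and 3 higher in M, where 1.64%, 4.82% and 3.66% of all genes tested were called higher in BS and 1.44%, 3.56% and 2.07% higher in M. Its median log2 BS/M was -0.50, -0.37 and -0.23, beside 0 over all genes tested. This list and the breakdown list below came from the same annotation of the study as the MtN3 genes. Their calls may therefore not be independent evidence either. The most abundant SPS gene, GRMZM5G875238, was at 97.4 and 95.7 FPKM in maturing BS, against 419.7 and 412 FPKM in maturing M, the opposite order to the SWEET13 genes. The FBPase gene GRMZM2G322953 was at 235 and 176 FPKM in maturing BS, against 13.1 and 9.63 FPKM in maturing M, while the FBPase gene GRMZM5G836250 was at 526 and 463 FPKM in BS, against 1385 and 1416 FPKM in M. GRMZM2G322953 also fell in BS between maturing and mature, by 2.42 ± 0.21 (SE) on the log2 scale (limma adjusted p = 0.00013), as SUT1 and SWEET13a did.

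By the labels of the study's annotation, the sucrose breakdown list holds 5 sucrose synthase, 4 cell wall invertase and 4 neutral invertase genes. In each of the 3 stages 1 of its 13 genes was called higher in BS, and 0, 1 and 1 were called higher in M at SST, maturing and mature, where 1.64%, 4.82% and 3.66% of all genes tested were higher in BS and 1.44%, 3.56% and 2.07% higher in M. The sucrose synthase gene GRMZM2G311182 was the one higher in BS at maturing and mature, at 3.77 and 2.61 FPKM in maturing BS, against 0.168 and 0.120 FPKM in maturing M. The abundant neutral invertase gene GRMZM2G477236 was at 61.8 and 60.0 FPKM in maturing BS, against 123 and 120.0 FPKM in maturing M. Among the genes labelled cell wall invertase, GRMZM2G089836 is named IVR2 in the study's text, and its label was not checked.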

How the data were processed

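The authors deposited FPKM values for each gene model in the 12 libraries, used as deposited. The submitters' processing notes name CASAVA 1.3, TopHat, TopHat2 2.0.10, Cuffdiff 2.1.1 and the genome B73 RefGen_v3. The paper names an earlier build of the same genome, and a scaling between libraries by the authors is not given in the sources used here. The labels give Mo17 for all 12 libraries, while the paper's methods name both Mo17 and B73, and the gene models are those of B73. No counts were used. The count test of the study, with upper quartile normalization, was replaced by limma.

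The upper quartile of each library, over the 47572 genes above 0 in some library, was brought to 2.56 FPKM. A pseudocount of 0.256 FPKM was added before log2 transformation, so that fold changes of low genes are understated. The 32548 genes whose mean reached 0.256 FPKM in 1 or more groups entered the fit of 6 group means by limma 3.58.1 in R 4.3.3, with a trend of the spread, 6 residual and 2.12 prior degrees of freedom. p-values were adjusted by Benjamini and Hochberg over all genes within each comparison, and genes below 0.01 were called, the threshold of the study. Summed levels, shares and ratios were tested by exact permutation of the cell labels within stages (two-sided). Library sums of FPKM ranged between 1009183 and 1551571, replicates correlated at 0.898 to 0.934, and with 2 libraries in a group an SD is only a rough guide. The procedure was tested on simulated data for BS against M at maturing, with 200 genes given a log2 change of 3. The fitted direction was right for 199 of them, 69 were called, and 0 unchanged genes were called. A difference that did not pass can therefore be a real one. Python 3.11.15, pandas 2.3.3, NumPy 2.4.6, SciPy 1.17.1 and matplotlib 3.10.9 were used.

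The members and lists were chosen with earlier results of these data known. Beside the 4 members, list genes are named where they were called in a comparison or lay among the 3 highest of their list, and for each member the 5 named genes of highest correlation. The lists came from the study's annotation or from names in the RefSeq table, in which all 4 members and 48 of 53 list genes had a match. No sequences are shown. Alternatives were other scalings (none, median of ratios), pseudocounts, filters, no trend, separate fits, a replicate block and leaving out each library.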

Additional observations from a re-analysis of the deposited data

Results flagged for a closer look

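One result stood out because an effect differed between stages by a test of the difference itself. The log2 BS/M of SWEET13a was 1.71 ± 0.22 (SE) in the mature section and 5.05 ± 0.22 in the maturing section, a difference of -3.35 ± 0.32 (limma adjusted p = 0.00185). Behind it, both mature BS libraries (123 and 103 FPKM) were below both maturing BS libraries (289.6 and 202 FPKM), and both mature M libraries (30.5 and 38.9 FPKM) were above both maturing M libraries (7.24 and 6.85 FPKM). The difference was called without each of the 12 libraries in turn, at between -3.61 and -3.09, and was not called with separate fits (adjusted p = 0.0124). The summed BS markers in M were higher in the mature than in the maturing section as well, and their part in the difference was not tested.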

How the results depend on the processing

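Of 402 values of the 4 genes recomputed under other scalings, pseudocounts, filters and fits, 371 kept their direction and their side of the threshold, as did 492 of 564 values recomputed without 1 library. In no alternative was a called difference reversed. Precision is limited by the 2 libraries in a group and, for values below about 1 FPKM such as those of SWEET13c at SST, by depth. The causes of the moves below were not tested.

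Fitting each comparison by itself, on its own libraries alone, leaves fewer degrees of freedom. The fitted values stayed the same and these calls were lost: between BS and M at SST for SWEET13a (2.60), SWEET13b (3.55), SWEET13c (2.22, fitted against a group at 0) and SUT1 (3.85), at maturing for SUT1 (6.31), and at mature for SWEET13a (1.71), SWEET13b (2.60) and SWEET13c (3.15), in BS for SWEET13a between mature and maturing (-1.10) and SWEET13b between mature and SST (2.67), in M between maturing and SST for SWEET13a (2.02) and SWEET13c (2.48), between mature and maturing for SWEET13a (2.25) and SWEET13b (2.37), and between mature and SST for SWEET13c (3.17), and the change of log2 BS/M of SWEET13a between maturing and mature (-3.35). SUT1 between maturing and SST in BS (1.52) passed in this fit (adjusted p = 0.0061).

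The falls in BS between maturing and mature were lost for SWEET13a (-1.10) and SUT1 (-2.74) with no filter and with no trend. With a pseudocount of 1, SWEET13c was no longer called at SST (0.97) or between maturing and SST in M (1.12), and the change of log2 BS/M between SST and maturing was called for SWEET13a (2.72) and SWEET13c (2.84). With the smaller pseudocount that change of SWEET13c was -0.58, and with the stricter filter that of SWEET13a was called (2.45). SUT1 between mature and SST in M, not called, was at -0.019 without scaling and -0.091 with median-of-ratios scaling.

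The replicate numbers did not pair the samples: the 15 correlations of deviations between groups lay between -0.042 and 0.023. A block on these numbers ended the falls of SWEET13a (-1.10) and SUT1 (-2.74) in BS between maturing and mature, at adjusted p of 0.0124 and 0.01002, and no other call of the 4 genes changed. The numbers of genes whose BS/M changed were 52 and 164 with the block, against 100 and 304 without it.

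Without 1 library at a time, the values that crossed the threshold or 0 lay within these ranges. Between BS and M these were SWEET13c at SST (1.75 to 2.68), SUT1 at SST (3.45 to 4.26), SWEET13a at mature (1.53 to 1.88) and SWEET13b at mature (2.17 to 3.03). In BS these were SWEET13b between maturing and SST (2.62 to 3.14) and between mature and SST (2.24 to 3.10), and, between mature and maturing, SWEET13a (-1.36 to -0.84), SWEET13b (-0.64 to 0.22, not called) and SUT1 (-2.77 to -2.70). In M these were SWEET13c between maturing and SST (2.33 to 2.62), SWEET13b between mature and maturing (2.03 to 2.71) and SUT1 between mature and SST (-0.62 to 0.82, not called). The change of log2 BS/M between SST and maturing was 2.19 to 2.71 for SWEET13a and 1.70 to 2.62 for SWEET13c. The difference in the share of SWEET13b was 5.45 to 10.7 points (exact permutation p up to 0.148), and that in the log2 ratio of SUT1 to the SWEET13 sum 0.34 to 0.99, the highest without the first mature M library (p = 0.0185).

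Single SUT1 values that reversed were -0.31 without the first SST M library and -0.62 without the first mature M library, and for SWEET13b between mature and maturing in BS 0.05 without the first maturing BS library and 0.22 without the first mature BS library.

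The number of genes called was lowest with separate fits, and over all alternatives it lay between 26 and 1288 for BS against M at SST (1003 as reported), 765 and 2947 at maturing (2729), and 13 and 2642 at mature (1863). Between stages it lay between 1318 and 3771 for maturing against SST in BS (3616), 802 and 4660 for mature against maturing in BS (4672), 2398 and 7031 for mature against SST in BS (7150), 36 and 2946 for maturing against SST in M (2717), 852 and 4864 for mature against maturing in M (4641) and 1070 and 6506 for mature against SST in M (6345). For the change of BS/M it lay between 52 and 1519 (100) and between 90 and 1741 (304), both highest without the second maturing BS library.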
